A study of Caenorhabditis elegans with 33 samples.

Results

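Whole *Caenorhabditis elegans* that had grown under chronic gamma radiation were compared with unirradiated animals of the same generation, and the differences were averaged over 4 generations, F0 to F3. The comparison took every library whose labels name an exposed or a control group, 24 of the 33 in the series, with 12 on each side and 3 in each group. All animals were of the wild-type N2 strain, kept at 19 °C on bacteria and synchronised as embryos. Exposed animals received 50 mGy per h for 65 h, starting as embryos and ending as L4 larvae or young adults, and F1, F2 and F3 exposed animals descended from generations irradiated in the same way. Control animals were never irradiated. The other 9 libraries came from unirradiated descendants of irradiated F0 animals (recovery) and entered the estimate of the spread and the values set beside the exposed ones at the end. The 3 libraries of a group are labelled biological replicates, but not as separate irradiations, and the p-values therefore measure only how these libraries vary.

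Gamma radiation ionises water and biological molecules, which breaks DNA and produces reactive oxygen species. In *C. elegans* the p53 homologue CEP-1 induces the BH3-only genes *egl-1* and *ced-13* after DNA damage in the germ line, and apoptosis of germ cells follows. Oxidised and misfolded molecules are handled by glutathione S-transferases, UDP-glucuronosyltransferases and heat shock proteins, many of them made in the intestine, which is also the main site of fat storage and of peroxisomal fatty acid breakdown.

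Total counts ran from 27.7 to 46.9 M in the 24 libraries, and 17627 genes had enough counts to be tested. The first 2 principal components of these libraries held 28.2% and 19.5% of the variance. The share of counts in ribosomal RNA genes was 3.19% to 24.3%. In F1 this share did not overlap between exposed (3.51% to 5.12%) and control libraries (6.86% to 12.7%). F3 control replicate 3 had 19610 genes with a count, fewer than the other 23 libraries. Without it the falls among DNA repair genes below went from 1 to 3, those among insulin outputs from 1 to 2 and those among meiosis genes and male markers from 1 to 0, and the rises among antioxidant enzymes from 1 to 2. The falls among ABC transporters, peroxisomal beta-oxidation, intestinal proteases and neuron markers also went from 0 to 1, as did the rises among muscle markers. Other counts in the text that it moved by over 1.5 times are given, alone or in a range, where they stand. RNA came from whole animals, so fewer cells of a type and less RNA per cell cannot be told apart.

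Rises outnumbered falls, and most differences were small. Of 17627 genes 974 were called higher in exposed animals (5.53%) and 488 lower (2.77%), together 8.29% (edgeR quasi-likelihood test, Benjamini-Hochberg adjusted p under 0.05, with no minimum fold). At least 1.5-fold differences were reached by 209 of the rises and 51 of the falls, and at least 2-fold differences by 56 and 5. A 3-fold difference was reached by 13 rises and 0 falls. Without F3 control replicate 2 the number of falls went to 826, and without the whole of generation F1 to 325. The excess of rises was small without F0, with 755 rises and 692 falls, and with limma-voom, with 1489 and 1316. On chromosome X 8.31% of the tested genes were called higher, against 3.72% on chromosome I, where the share was lowest among the nuclear chromosomes, and on both the share of falls was smaller, 1.85% and 2.48%.

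*R09E10.2*, a protein-coding gene of chromosome IV (10317563 to 10318299, minus strand, WBcel235), had the smallest p of all rises. Its levels in F0 were 30.04, 24.6 and 26 CPM in the exposed libraries and 4.69, 6.54 and 6.38 CPM in the controls (counts scaled to library size by edgeR). In F1 they were 17.9, 19.7 and 19.8 CPM against 5.40, 4.07 and 4.67 CPM, and in F2 20.4, 19.6 and 20.1 CPM against 5.67, 8.34 and 5.64 CPM. In F3 they were 24.5, 18.5 and 16.5 CPM against 4.92, 3.24 and 5.69 CPM. Every one of the 12 exposed libraries thus lay above every control library, with 16.5 CPM as the lowest exposed and 8.34 CPM as the highest control value. The mean rise was 3.94-fold (edgeR log2 fold change 1.98 ± 0.09 SE, adjusted p = 3.1e-15).

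*egl-1*, the BH3-only activator of apoptosis, lay on chromosome V (14431308 to 14432359, minus strand) and was a gene of low level. It ranged from 1.34 to 2.63 CPM in the exposed libraries (median 2.08) and from 0.44 to 1.32 CPM in the controls (median 1.04). The 2 sides did not overlap, although in F0 the lowest exposed library, at 1.34 CPM, was next to the highest control library, at 1.32 CPM. The mean rise was 1.94-fold (edgeR log2 fold change 0.95 ± 0.13 SE, adjusted p = 1.5e-05). By generation the log2 fold change was 0.43, 0.96, 1.11 and 1.31 from F0 to F3, and the test of a change between generations did not pass (edgeR adjusted p = 0.31). *cep-1* ranged from 62.6 to 81.7 CPM in exposed and from 58.9 to 91.8 CPM in control libraries, with a mean log2 fold change of 0.03 (SE 0.05, edgeR adjusted p = 0.76). *ced-13*, the second BH3-only target, had 0 to 4 counts in a library on both sides and was not tested.

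No other gene had 12 exposed libraries above 12 controls except *ZC250.4*, a protein-coding gene of chromosome V named here after its values were seen. It was at 22.6 to 45.9 CPM (median 28.9) in exposed and 12.5 to 21.8 CPM (median 16.6) in control libraries. In the other direction this held for 1 gene, the ferritin heavy chain gene *ftn-1* of chromosome V (7546468 to 7547579, minus strand), whose product stores iron in the intestine. *ftn-1* was at 1.17 to 2.63 CPM (median 1.78) in exposed and 2.67 to 8.22 CPM (median 4.67) in control libraries, a mean fall of 2.64-fold (edgeR log2 fold change −1.40 ± 0.17 SE, adjusted p = 2.5e-06). Complete separation of 12 from 12 libraries was thus seen in 3 genes upward (0.017% of those tested) and 1 downward (0.00567%). Separation within each of the 4 generations, 3 libraries from 3 each time, was seen in 83 genes upward (0.471%) and 20 downward (0.113%).

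**Figure D1:**
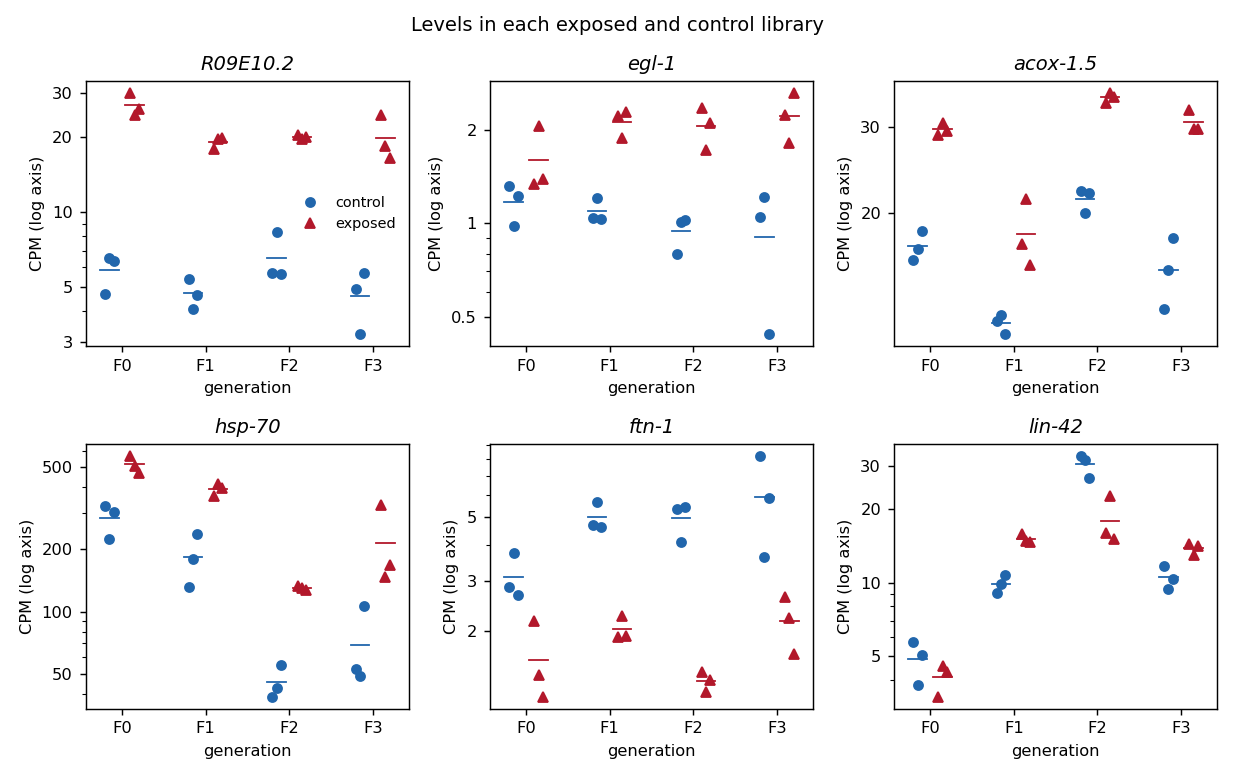
CPM on log axes in each exposed (triangles) and control (circles) library by generation, with lines at group means, for 6 genes. The 12 exposed libraries of *R09E10.2* (16.5 to 30.04 CPM) lie above all controls and those of *ftn-1* (1.17 to 2.63 CPM) below them, *hsp-70* and *acox-1.5* separate within each generation, and *lin-42* changes direction between F1 and F2.

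Heat shock genes gave rises and no falls. Of 15 tested small heat shock and hsp-70 genes 7 were called, all higher, or 46.7% against 8.29% of all genes, and the list's median log2 fold change was 0.36 against −0.01 over all genes tested. *hsp-70*, the inducible cytosolic HSP70, was at 127 to 570 CPM (median 347) in exposed and 38.6 to 325 CPM (median 119) in control libraries. These ranges overlap across generations, with lower levels in F2 than in F0 on both sides, but within each generation the 3 exposed libraries lay above the 3 controls. The mean rise was 2.43-fold (edgeR log2 fold change 1.28 ± 0.14 SE, adjusted p = 1.6e-06), with 0.86, 1.10, 1.52 and 1.64 in F0 to F3. *hsp-16.41* was at 124 to 776 CPM in exposed and 36.2 to 446 CPM in control libraries and rose 2.27-fold. *hsp-16.1* (WBGene00002015) rose 4.44-fold from a control median of 0.535 CPM, with a smaller log2 fold change in F3 (0.70) than in F0 to F2 (2.38 to 2.89). Small heat shock genes have near-identical copies, so their separate levels are not certain. The second gene named *hsp-16.1* (WBGene00002017) had a log2 fold change of 0.61 and was not called.

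Of 49 constitutive and organelle chaperones 6 rose and 0 fell, 12.2% against 8.29% of all genes. The falls became 1 without F1 exposed replicate 2 or F3 control replicate 1, and were up to 2 in other alternatives. *dnj-13*, an HSP40 co-chaperone, rose 1.24-fold from a control median of 387 CPM to an exposed median of 494 CPM, and the 3 exposed lay above the 3 control libraries in all 4 generations (edgeR log2 fold change 0.31 ± 0.04 SE, adjusted p = 8.3e-07). It overlaps *dhgd-1* on the opposite strand. *aip-1*, an arsenite-inducible partner of the proteasome, was at 174 to 625 CPM (median 420) in exposed and 102 to 380 CPM (median 165) in control libraries and rose 1.78-fold. Of 33 proteasome subunit genes 1 was called (3.03%), *rpn-3*, with a log2 fold change of 0.12. *F44E5.4* and *F44E5.5*, a pair of HSP70 genes of near-identical sequence chosen after their values were seen, rose 2.27-fold and 2.01-fold.

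Conjugation enzymes showed rises in one family and both directions in others. Of 46 glutathione S-transferases, which couple glutathione to electrophiles, 18 rose and 0 fell (39.1%, median log2 fold change 0.14). *gst-36* was at 54.4 to 129 CPM (median 85.9) in exposed and 40.6 to 85 CPM (median 49) in control libraries, did not overlap within any generation and rose 1.499-fold (edgeR log2 fold change 0.58 ± 0.06 SE, adjusted p = 3.1e-07). *gst-13* rose 1.25-fold and *gst-4*, a target of the SKN-1 factor chosen after its values were seen, had a log2 fold change of 0.24. Without F0 the number of rises in the glutathione S-transferase list went to 11, and its falls ran from 0 to 1 as single libraries were left out. Of 28 antioxidant enzymes 1 was called (3.57%), the mitochondrial superoxide dismutase gene *sod-3*, which rose 1.30-fold. As single libraries were left out, the antioxidant rises ran from 1 to 3 and the falls from 0 to 2.

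Of 63 UDP-glucuronosyltransferases 12 rose and 8 fell, together 31.7% against 8.29% of all genes. *ugt-44* rose 1.61-fold, from a control median of 42.0 CPM to an exposed median of 71.7 CPM. *ugt-4* fell 1.89-fold, with 1.59 to 5.60 CPM (median 4.32) in exposed and 4.36 to 10.6 CPM (median 6.45) in control libraries, and its log2 fold change was −0.43, −0.72, −0.92 and −1.61 from F0 to F3 (edgeR adjusted p of the change 0.052). The number of falls in the family moved with single libraries, to 5 without F0 exposed replicate 2 or 3 and to 4 without F2 control replicate 3, F3 exposed replicate 2 or F3 control replicate 1 or 3. Of 68 cytochrome P450 genes 5 rose and 4 fell, together 13.2%. The related genes *cyp-25A2* and *cyp-25A1* rose 1.59-fold and 1.70-fold, and *cyp-32B1* fell 1.45-fold, with log2 fold changes between −0.58 and −0.48 in the 4 generations. The 5 rises of this list became 2 without F0 exposed replicate 1, F0 control replicate 1 or 2, F1 exposed replicate 2 or F1 control replicate 3, and 3 without F0 exposed replicate 2, F2 exposed replicate 2 or 3, F2 control replicate 2 or F3 control replicate 1. The falls became 9 without F3 control replicate 2. Of 42 ABC transporters 6 rose and 0 fell (14.3%). The rises included *pgp-9*, 1.44-fold, and *abt-4*, 1.40-fold. Falls in this list became 2 without F3 exposed replicate 1 and 3 without F3 control replicate 2, and were up to 6 in other alternatives.

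Peroxisomal beta-oxidation had the largest share of called members of the 46 lists, though not without F0 or F3. Without F0 12 of its 29 genes rose and 1 fell, and without F3 9 rose. In each case 7 of 15 rose in the small heat shock list. As single libraries were left out, the peroxisomal rises ran from 12 to 17 and the small heat shock rises from 7 to 9. Of 29 genes 15 rose and 0 fell (51.7%, median log2 fold change 0.19). The falls ran from 0 to 3 as single libraries were left out, with 3 without F3 control replicate 2. *acox-1.5*, which encodes an acyl-CoA oxidase, was at 15.7 to 35.3 CPM (median 29.8) in exposed and 11.3 to 22.2 CPM (median 16.5) in control libraries. Within each generation the exposed libraries lay above the controls, and the mean rise was 1.71-fold (edgeR log2 fold change 0.78 ± 0.05 SE, adjusted p = 1.2e-10). *pmp-1*, an ABC transporter of the peroxisomal membrane, rose 1.61-fold from a control median of 25.9 CPM to an exposed median of 44.1 CPM, with log2 fold changes of 0.62 to 0.77 over the generations.

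The peroxisomal rises also covered the later steps of the cycle that shortens ascaroside pheromone side chains, in genes named here after their values were seen. *maoc-1* (log2 fold change 0.22), *dhs-28* (0.32) and *daf-22* (0.15) encode its hydratase, dehydrogenase and thiolase. *dhs-28* was one of the most even changes, with 0.34, 0.29, 0.29 and 0.33 from F0 to F3. The import receptor gene *prx-5* had a log2 fold change of 0.21.

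Fatty acid synthesis and activation genes gave a smaller share of calls than the peroxisomal list, but a larger one than all tested genes (8.29%). Of 23 synthesis, elongation and desaturation genes 5 rose, all of them elongases, and 1 fell, together 26.1%. *elo-2*, a palmitate elongase, rose 1.64-fold from a control median of 113 CPM to an exposed median of 185 CPM, and *elo-9* 1.40-fold. *elo-5* and *elo-6*, which make branched-chain fatty acids and were chosen after their values were seen, had log2 fold changes of 0.46 and 0.55. The fall was *fat-5*, a palmitoyl-CoA desaturase, at 1.31-fold, and it was uneven: −0.67, −0.86, −0.30 and 0.28 from F0 to F3 (edgeR adjusted p of the change 0.044). The call of its mean was lost without F0 or F1, with the replicate block and with an additive model (edgeR adjusted p up to 0.27). Of 22 acyl-CoA synthetases 4 rose and 0 fell (18.2%), with *acs-14* at 1.40-fold and *acs-1* at 1.39-fold. The falls among synthetases ran from 0 to 5 as single libraries were left out. Of 25 mitochondrial beta-oxidation genes 3 rose and 0 fell (12%). Falls in this list were 3 without F3 exposed replicate 1 or F3 control replicate 2, and up to 4 in other alternatives. Of 36 lipases and lipid binding proteins 7 rose and 2 fell, together 25%. *lipl-1*, a lysosomal lipase, rose 1.68-fold and *lipl-4*, another, fell 1.54-fold, a call lost without F3 (edgeR adjusted p = 0.089).

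Further lipid genes, outside these lists and chosen after their values were seen, separated within each of the 4 generations. *scp-1*, the homologue of the sterol sensor SCAP, rose 1.42-fold, from a control median of 68.7 CPM to an exposed median of 106 CPM (edgeR log2 fold change 0.51 ± 0.05 SE, adjusted p = 5.2e-08). *pcyt-1*, of phosphatidylcholine synthesis, rose 1.35-fold, and *sptl-3*, a serine palmitoyltransferase subunit of sphingolipid synthesis, 1.23-fold. *spl-1*, the sphingosine-phosphate lyase, rose 1.11-fold. *pcyt-1* overlaps *unc-98* on the opposite strand. Of 6 vitellogenin genes, which encode yolk proteins, 1 was called, *vit-1*, 1.19-fold higher, from a control median of 1186 CPM to an exposed median of 1461 CPM.

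Genes of iron, haem and metal handling moved in both directions, 8 of 39 higher and 3 lower, together 28.2% against 8.29% of all genes. *hrg-4*, an intestinal haem importer, rose 2.33-fold (edgeR log2 fold change 1.221 ± 0.11 SE, adjusted p = 2.1e-08), at 0.902 to 7.86 CPM (median 5.65) in exposed and 0.587 to 3.90 CPM (median 2.34) in control libraries. The libraries separated in 3 of the 4 generations. *ftn-1* fell, as given above, and so did the zinc transporter genes *zipt-2.1*, 1.18-fold, and *cdf-2*, by 0.31 on the log2 scale. *cdf-2* was chosen after its values were seen. *cdr-7* rose 1.33-fold.

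**Figure D2:**
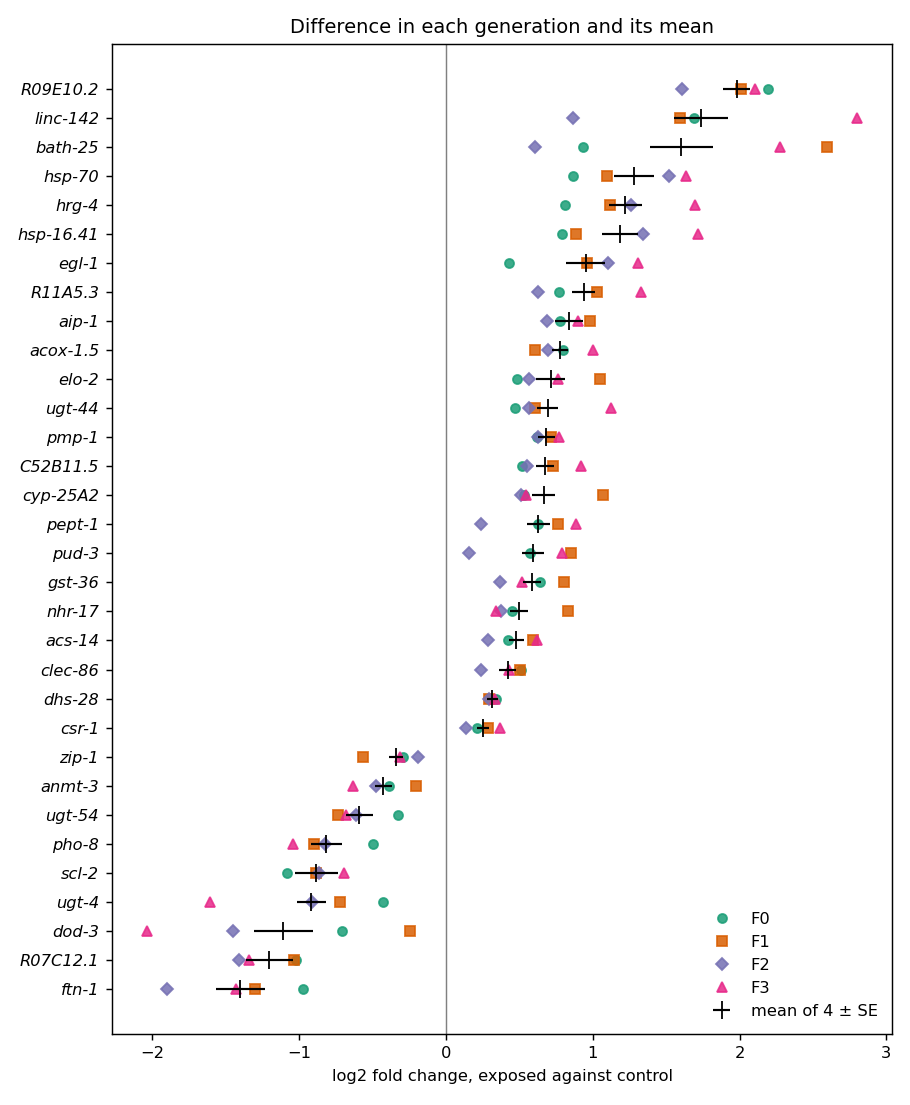
Log2 fold change of exposed against control libraries for 32 genes in each generation (coloured marks) with the mean over the 4 generations and its SE (black). *pmp-1* (0.62 to 0.77) and *dhs-28* (0.29 to 0.34) lie close together over the generations, and *bath-25* (0.61 to 2.60) and *dod-3* (−2.03 to −0.24) lie far apart. All 32 keep 1 sign, but the rule that chose many of them required this, so it is no result.

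Most immune and intestinal lists gave more rises than falls, as all tested genes did (974 against 488). Of 158 C-type lectins, secreted or membrane carbohydrate-binding proteins, 26 rose and 6 fell, together 20.3%, with a median log2 fold change of 0.13. *clec-86* rose 1.34-fold, *clec-186* 1.224-fold and *clec-221* 2.37-fold, the last from a control median of 3.89 CPM to an exposed median of 11.1 CPM. Without F3 the rises of this list went to 11, and without F1 the falls went to 0. Without F2 control replicate 2 or F3 exposed replicate 2 the falls were 2, and they were 3 without F0 exposed replicate 2 or 3, F1 exposed or control replicate 1, or F2 exposed replicate 2. Of 92 lysozyme and antimicrobial peptide genes 12 rose and 3 fell, together 16.3%, with 18 rises without F3 control replicate 3. The saposin-like gene *spp-25* rose 1.29-fold and the antibacterial factor gene *abf-1* 1.47-fold from a control median of 0.882 CPM. *abf-1* overlaps *C50F2.2*, which was at 80.3 and 80.0 CPM on the 2 sides, on the opposite strand.

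Of 31 irg and pals genes 2 rose and 4 fell, together 19.4% against 8.29% of all genes. There were 1 to 2 rises and 3 to 7 falls as single libraries were left out, the 7 without F3 control replicate 2. Of 35 intestinal protease and peptide uptake genes 6 rose and 0 fell (17.1%), with 0 to 1 falls as single libraries were left out. *pept-1*, the intestinal peptide transporter, rose 1.55-fold from a control median of 43.8 CPM to an exposed median of 73.4 CPM. Of 11 intestine markers 2 rose, among them *elt-2*, the GATA factor of the intestine, 1.28-fold, and 1 fell, together 27.3%. The call of *elt-2* was lost without F3 (edgeR adjusted p = 0.10), and the rises of this list ran from 1 to 4 as single libraries were left out, with 4 without F3 control replicate 2. Of 23 genes known as outputs of the insulin pathway 9 rose and 1 fell, together 43.5%, and their median log2 fold change was 0.21. The falls of this list ran from 1 to 3 as single libraries were left out. *pud-3* rose 1.51-fold and *pud-4* 1.36-fold, while *dod-3* fell 2.16-fold, with 3.14 to 8.82 CPM in exposed and 8.37 to 38.6 CPM in control libraries. Of 202 nuclear hormone receptor genes 11 rose and 12 fell, together 11.4%. There were 7 rises without F2 exposed or control replicate 1 and 7 falls without F2 control replicate 3. *nhr-17* rose 1.41-fold and *nhr-156* fell 1.32-fold, a call lost without F1 (edgeR adjusted p = 0.10).

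Several of the strongest changes belonged to genes of no stated role here. *linc-142*, a long non-coding RNA of chromosome X, was at 2.01 to 7.68 CPM (median 3.38) in exposed and 0.337 to 2.101 CPM (median 1.15) in control libraries and rose 3.33-fold (edgeR log2 fold change 1.74 ± 0.18 SE, adjusted p = 3.1e-07). Its 1921 annotated bases lie within *scd-1* on the same strand, whose mean was 31.5 CPM in exposed against 32.6 CPM in control libraries. *bath-25*, of a MATH and BTB domain family, rose 3.04-fold, with 22.4 CPM in the highest exposed and 11.6 CPM in the highest control library. Its family gave 7 rises and 4 falls among 79 genes, together 13.9% against 8.29% of all genes. *R11A5.3* rose 1.92-fold, *C52B11.5* 1.60-fold and *F59B1.8* 1.34-fold, each with exposed above control libraries in all 4 generations. *gcy-17*, a guanylyl cyclase gene, rose 2.78-fold from a control median of 0.266 CPM.

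Among falls, *R07C12.1* was at 0.292 to 4.06 CPM (median 1.63) in exposed and 0.596 to 7.68 CPM (median 3.72) in control libraries and fell 2.30-fold. *scl-2*, of a secreted cysteine-rich protein family, fell 1.84-fold, *pho-8*, an acid phosphatase family gene, 1.76-fold and *anmt-3*, of an amine methyltransferase family, 1.34-fold. The bZIP factor gene *zip-1* fell 1.27-fold, with 10.9 to 12.7 CPM in exposed and 12.6 to 17.6 CPM in control libraries. All 5 genes had the exposed below the control libraries within each of the 4 generations. *pho-8* overlaps *nphp-4* on the opposite strand, which was near 1 CPM on both sides.

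Genes of DNA repair, replication and the germ line changed little in the mean. Of 59 DNA repair genes 3 rose and 1 fell, together 6.78%, near the background share of 8.29%. *rad-50*, of the MRN complex that binds broken ends, rose 1.11-fold, from a control median of 106 CPM to an exposed median of 118 CPM, but not without F2 (edgeR adjusted p = 0.089). *nse-1*, of the SMC-5/6 complex, rose 1.13-fold, and the base excision glycosylase gene *nth-1*, which overlaps *R10E4.6* on the opposite strand, fell 1.17-fold. The third rise, the recombinase gene *rad-51*, chosen after its values were seen, had a log2 fold change of 0.09. The number of repair rises was 6 without F2 control replicate 3 and 5 without F3 control replicate 2 or 3. Of 21 checkpoint, CEP-1 and apoptosis genes 2 rose (9.52%), *egl-1* and, at the edge of the threshold, the kinase gene *chk-2*.

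Of 54 replication and cell cycle genes 0 rose and 1 fell (1.85%), the cyclin B gene *cyb-1*, 1.09-fold, a call lost without F0, F1 or F3. Of 40 meiosis genes 1 fell (2.5%) and of 55 oocyte and eggshell genes 3 rose (5.45%). Of 75 small RNA pathway and germ granule genes 3 rose and 2 fell (6.67%). As single libraries were left out, the meiosis falls ran from 0 to 1, the oocyte rises from 1 to 3, the small RNA rises from 3 to 5 and the small RNA falls from 1 to 3. The Argonaute gene *csr-1* rose 1.19-fold, with 401 to 526 CPM in exposed and 307 to 447 CPM in control libraries. *glh-1*, the Vasa-like germ granule helicase, rose 1.16-fold. Of 74 histone modifier genes 1 rose and 1 fell, and of 82 cytosolic ribosomal protein, 26 muscle marker and 22 neuron marker genes 0 were called by edgeR's adjusted p.

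Sperm and cuticle lists had medians of both signs over the generations. Of 29 major sperm protein genes, which have near-identical sequences, 0 rose and 6 fell (20.7% against 8.29% of all genes). The median log2 fold change was 0.07, −0.28, −0.57 and 0.08 from F0 to F3. The 6 falls became 0 without F2 control replicate 2, 22 without F2 control replicate 3, 17 without F3 control replicate 2 and 16 without F3 exposed replicate 1. They were 1 without F0 control replicate 2, F2 control replicate 1 or F3 control replicate 1, 2 without F1 control replicate 2 or F3 exposed replicate 2, and 3 without F0 control replicate 3, F3 exposed replicate 3 or F3 control replicate 3. Of 66 other sperm genes 3 fell (4.55%), with medians of 0.05, −0.11, −0.67 and 0.21. The 3 falls ran from 1 to 11 as libraries were left out, with 11 without F2 control replicate 3. Of 155 cuticle collagens 3 rose and 1 fell (2.58%), with medians of −0.09, 0.26, −0.74 and 0.20, and 24 of them differed in their change between generations. The collagen rises ran from 2 to 4 and the falls from 0 to 6 as single libraries were left out, with 6 falls without F3 control replicate 2, 4 without F2 control replicate 3 and 3 without F3 exposed replicate 1. Beside these, a sperm score (mean log2 CPM of sperm genes) was 3.57 to 3.65 in F2 exposed and 3.85 to 4.46 in F2 control libraries. A cuticle score made in the same way was 2.51 to 2.69 and 2.89 to 3.41. The part of developmental stage in these values was not tested.

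Of 51 tested histone genes, whose copies are also near-identical, 1 rose and 3 fell, while 7.84% of them had a mean log2 fold change above 0, against 45% of all genes, and the median log2 fold change was −0.30. *his-32* fell 1.57-fold and *his-6* 1.61-fold, calls that were lost without F0 or F2 and, for *his-6*, in most other alternatives. The falls ranged from 0 to 13 as each of the 24 libraries was left out, with the largest number without F3 exposed replicate 1. Of 12 male markers 2 rose, the channel gene *asic-2*, 1.97-fold, and *mab-3*, a factor of male differentiation, and 1 fell, together 25%. The median of the list was 0.04, 0.16, 0.09 and 1.215 from F0 to F3, and its part in the other changes was not tested.

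**Figure D3:**
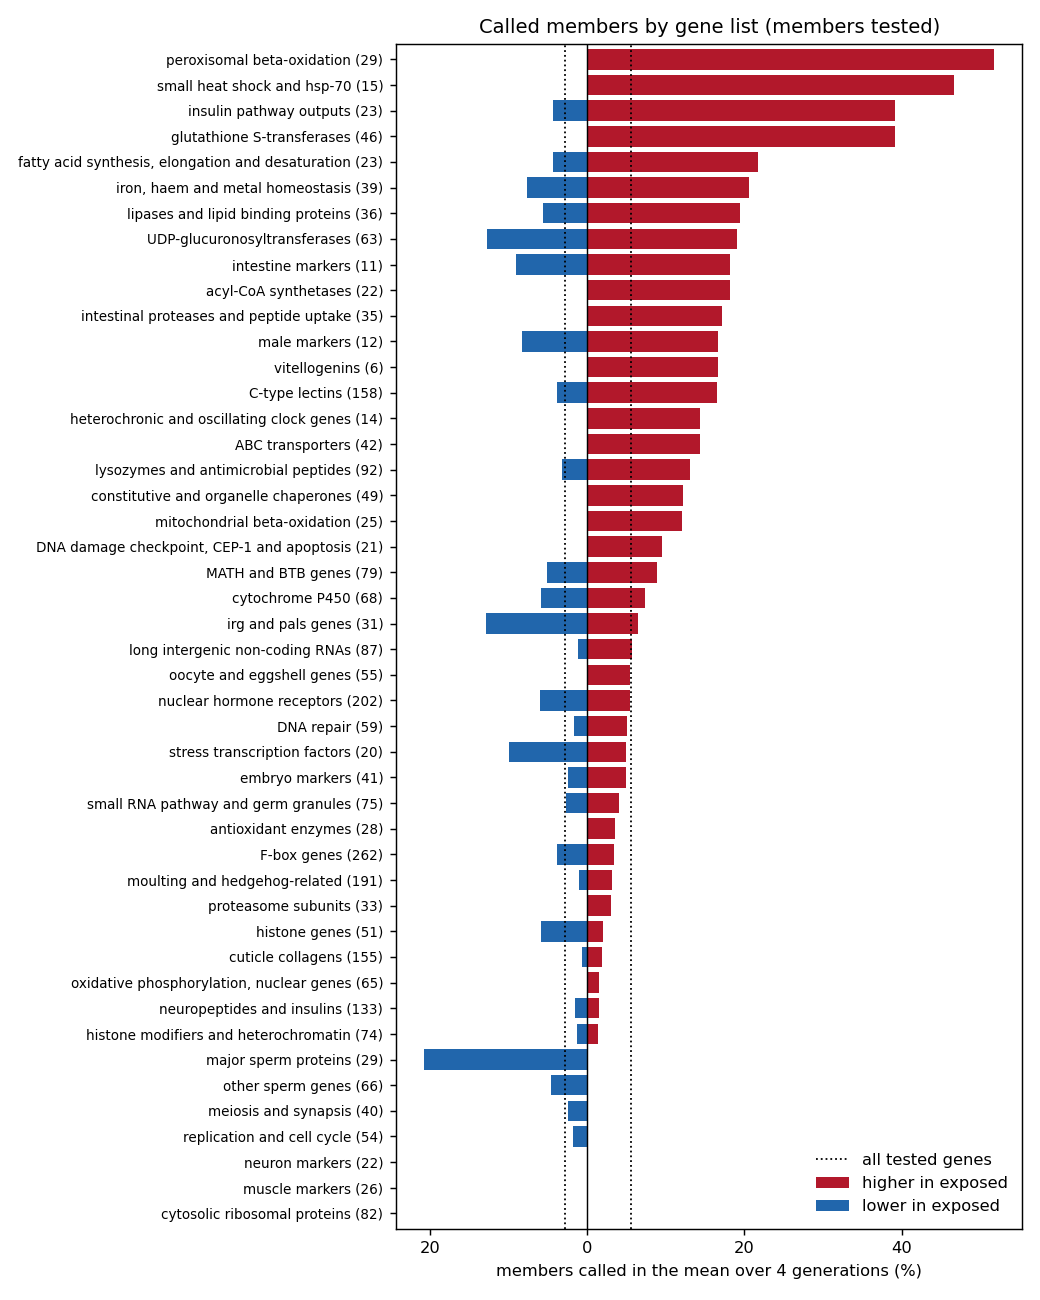
Share of the tested members of each gene list called higher (right) or lower (left) in the mean over 4 generations, with dotted lines at the shares over all tested genes, 5.53% higher and 2.77% lower. Peroxisomal beta-oxidation (15 of 29), small heat shock and hsp-70 genes (7 of 15) and glutathione S-transferases (18 of 46) reach farthest on the higher side and major sperm proteins (6 of 29) on the lower side.

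How even the response was between generations was asked first of the sign. Of the 974 rises 775 (79.6%) were above 0 in all 4 generations, and of the 488 falls 322 (66.0%) were below 0 in all 4, against 15.4% of all tested genes with 1 sign throughout. These shares are a description, since the mean that made the call contains the 4 values. Many calls needed the pooling: 402 of the rises and 184 of the falls were called in no single generation. Only 13 genes were called in each of the 4 generations (0.0738% of those tested). The 12 rises were *R09E10.2*, *ZC250.4*, *aip-1*, *hrg-4*, *acox-1.5*, *pmp-1*, *dhs-28*, *scp-1*, *C52B11.5*, *R11A5.3*, *F49C12.7* and *Y73B6BL.31*, of which *ZC250.4*, *dhs-28*, *scp-1*, *F49C12.7* and *Y73B6BL.31* were chosen after their values were seen. The fall was a pseudogene with no name in the annotation.

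The single generations gave unequal numbers of calls and shared few of them. In F0 227 genes were called higher (1.29% of those tested) and 13 lower (0.0738%), and in F1 166 (0.942%) and 93 (0.528%). In F2 495 were higher (2.81%) and 1092 lower (6.2%), and in F3 506 (2.87%) and 417 (2.37%), together 5.24%. Of the calls in a generation 73.8% in F0, 74.1% in F1, 18.9% in F2 and 51% in F3 were also called in the mean with the same sign. Of all tested genes 8.29% were called in the mean. The mean contains each generation, so part of this overlap is built in and the shares are a description. Across all 17627 genes the log2 fold changes of any 2 generations had a Pearson correlation between −0.04 (F2 with F3) and 0.28 (F1 with F3). Genes are not independent replicates, and the groups of different generations share no library. F3 had the largest of the 4 differences for 376 of the 974 rises and 196 of the 488 falls.

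A further check did not use the generation in which the sign was read. Genes were called from the mean of 3 generations, and their sign was then read in the generation left out. Leaving out F0, F1, F2 and F3 in turn gave rises in 4.28%, 4.51%, 5.51% and 3.72% of the tested genes and falls in 3.93%, 1.84%, 2.74% and 2.27%. Of the genes called higher in the other 3 generations, 660 of 755 were higher in F0 (87.4%, against 52.6% of all tested genes), 679 of 795 in F1 (85.4% against 50.7%), 712 of 971 in F2 (73.3% against 46.5%) and 523 of 656 in F3 (79.7% against 49.4%). In the generation left out 13.5%, 12.7%, 10.8% and 21.3% of them were also called higher there, against 1.29%, 0.942%, 2.81% and 2.87% of all genes. Their median log2 fold change in the left-out generation was 0.29, 0.20, 0.15 and 0.18 from F0 to F3. In the 3 generations that called them it was 0.35, 0.34, 0.37 and 0.29.

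Genes called lower in 3 generations were lower in the left-out one in 335 of 692 cases for F0 (48.4%, against 47.4% of all genes), 226 of 325 for F1 (69.5% against 49.3%), 266 of 483 for F2 (55.1% against 53.5%) and 194 of 401 for F3 (48.4% against 50.6%). In F1 the share was thus above that of all genes, and in F0, F2 and F3 it was near it. Summed over the 4 ways, in which a gene can count more than once, 81% of the rises and 53.7% of the falls kept their sign. With the sperm score as a covariate the share of the falls was 73.2%.

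**Figure D4:**
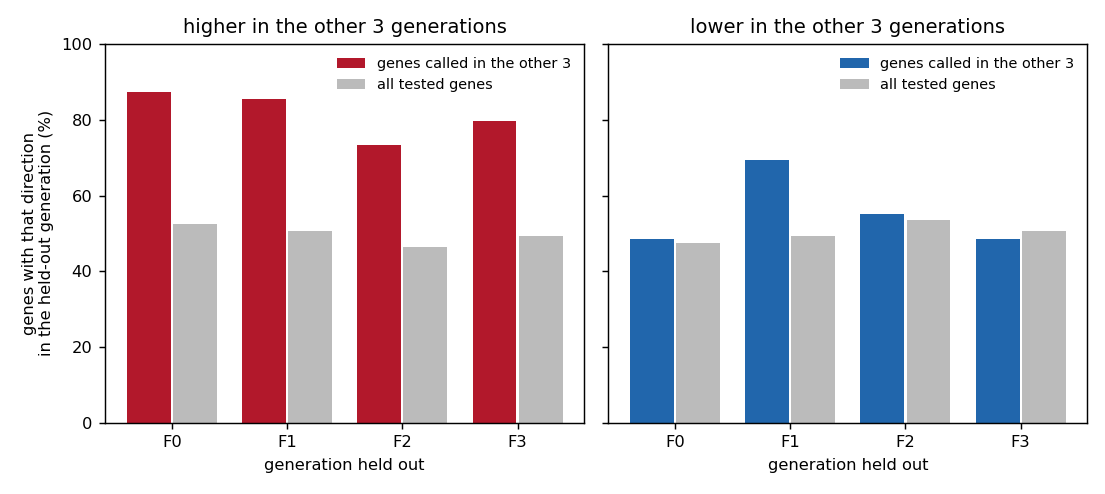
Share of genes called higher (left) or lower (right) in the mean of 3 generations that had the same sign in the generation left out, with the share over all tested genes in grey. Rises kept their sign in 73.3% to 87.4% of cases, and falls in 48.4% to 69.5%.

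List medians by generation kept 1 sign in some lists, among them lists with few called genes. The medians of the small heat shock and hsp-70 list were 0.49, 0.50, 0.38 and 0.16 from F0 to F3, those of the glutathione S-transferases 0.26, 0.17, 0.12 and 0.15, and those of peroxisomal beta-oxidation 0.26, 0.13, 0.12 and 0.20. All 12 of these medians were above 0, as were those of the C-type lectins (0.05 to 0.21). Medians also stayed above 0 for insulin outputs (0.019 to 0.279), intestinal proteases (0.002 to 0.113) and male markers (0.035 to 1.215). The same held for mitochondrial beta-oxidation (0.018 to 0.062) and antioxidant enzymes (0.001 to 0.095), so 1 sign was not particular to the lists with many calls. The histone genes stayed below 0, with medians of −0.36, −0.11, −0.49 and −0.12, and so did the embryo markers (−0.202 to −0.018). Medians of the cytosolic ribosomal protein genes were −0.36, 0.15, −0.22 and 0.14, with 0 genes called in the mean.

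**Figure D5:**
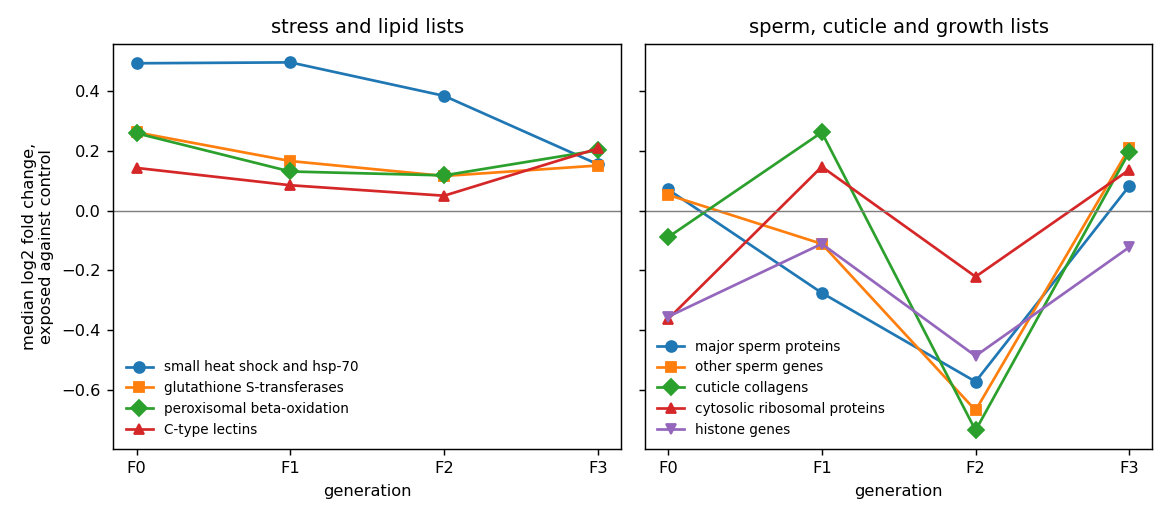
Median log2 fold change of exposed against control libraries by generation for 9 gene lists. The 4 stress and lipid lists stay above 0 in each generation (glutathione S-transferases 0.12 to 0.26), while cuticle collagens go from 0.26 in F1 to −0.74 in F2 and sperm lists are lowest in F2.

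The change between generations was also tested directly, as an interaction over the 4 differences. It was called for 939 genes (5.33%), of which 129 were also called in the mean, 8.82% of those calls. The share was 6.78% of the rises and 12.9% of the falls. The count of 939 moved with single libraries. It was 235 without F2 control replicate 2, 307 without F2 exposed replicate 1, 413 without F2 exposed replicate 3 and 435 without F2 control replicate 1, and 1993 without F2 control replicate 3. It was 540 to 595 without F0 exposed or control replicate 1, F1 exposed replicate 1, F2 exposed replicate 2 or F3 exposed replicate 3. Genes called higher in one generation and lower in another numbered 42, and 2 of them were called in the mean.

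*lin-42*, the period homologue that times larval moults, was an example. In F1 it was at 15.8, 14.9 and 14.7 CPM in exposed and 9.04, 9.87 and 10.7 CPM in control libraries, and in F2 at 15.9, 22.6 and 15.1 CPM against 33.1, 31.9 and 26.8 CPM. Exposed libraries were thus all higher in F1 and all lower in F2. The log2 fold changes were −0.25, 0.61, −0.77 and 0.40 from F0 to F3 (edgeR adjusted p of the change 0.0024), and the change was not called with the cuticle score as a covariate (edgeR adjusted p = 0.076). *hpo-15* was lower in F1 (log2 fold change −0.49) and higher in F2 and F3 (0.50 and 0.69). Of the genes named above for their mean, *R09E10.2*, *acox-1.5*, *gst-36* and *hsp-70* did not pass this test (edgeR adjusted p = 0.29, 0.25, 0.28 and 0.37), which does not show that their 4 differences were equal.

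Unirradiated recovery animals of F1 to F3 were compared with the same control libraries, so the values are set side by side only, and the difference from exposed animals was not tested here. Against controls *R09E10.2* had a log2 fold change of −0.05 in recovery animals (edgeR adjusted p = 0.83) and *egl-1* one of 0.16 (edgeR adjusted p = 0.57), beside 1.98 and 0.95 in exposed animals. Other genes passed the test in recovery animals as well. *hsp-70* was at 0.90, *hrg-4* at 0.93, *acox-1.5* at 0.37, *ugt-4* at −0.79 and *ftn-1* at −1.18 (edgeR adjusted p = 0.0045, 0.00048, 0.0027, 0.00037 and 0.0013), beside 1.28, 1.221, 0.78, −0.92 and −1.40 in exposed animals. The sets of generations are unlike, since the exposed values are means over F0 to F3 and F0 has no recovery group. In F0 the exposed log2 fold change was 0.86, 0.81, 0.80, −0.43 and −0.97 for these genes in turn. For *R09E10.2* and *egl-1* it was 2.19 and 0.43.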

How the data were processed

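RNA-seq libraries of whole N2 animals were strand-specific, paired-end, with 150-base reads, per the labels' protocols. The deposited values are whole-number gene counts made by the authors, with no normalisation. STAR and DESeq2 1.22.2 are named in the submitters' processing notes. The genome build, read counter and use of strand were not given in the sources used here, so levels of overlapping genes are uncertain. Of 46778 identifiers 46603 matched the WBcel235 annotation (release 115), which gave names and positions.

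All 33 libraries, in 11 groups, entered 1 edgeR 4.0.16 quasi-likelihood fit (R 4.3.3, TMM scaling, filterByExpr, 22 residual degrees of freedom), and p was adjusted over 17627 genes. The main contrast was the mean of the 4 differences within generations, which blocks generation, and the change between generations was an F-test over the 4 differences. Standard errors were calculated back from the F statistic. The code was tested on simulated data. Counting error is small at 27.7 M counts or more, but genes near 1 CPM rest on few counts. Alternatives were limma-voom (limma 3.58.1), DESeq2 1.42.0, other scalings, filters, covariates and libraries or generations left out.

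The comparison, the 46 gene lists and the genes were chosen with earlier results of these data known. By rule the text could name the 12 largest changes and the 6 smallest p each way among called genes with 1 direction in all generations, at least 1 CPM and a name. The rule added up to 2 members of smallest p each way from a list, the 8 smallest p for a change between generations, and *egl-1*, *ced-13* and *cep-1*. The text names fewer, and says where a gene was chosen otherwise.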

Additional observations from a re-analysis of the deposited data

Results flagged for a closer look

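Among the genes named, 11 had a difference between exposed and control animals that itself differed between generations (edgeR interaction test, adjusted p under 0.05). The adjusted p was 0.00068 for *hpo-15*, 0.0014 for *R10E8.1*, 0.0022 for *B0205.10*, 0.0024 for *ugt-48*, 0.0024 for *lin-42* and 0.0032 for *F18E3.13*. It was 0.0085 for the aspartyl protease gene *asp-13*, 0.01 for *sdz-24*, 0.027 for *msp-49*, 0.038 for the collagen gene *col-41* and 0.044 for *fat-5*. *R10E8.1* was lower in exposed animals in F0 to F2 (log2 fold change −0.25, −0.69 and −0.38) and higher in F3 (1.00). *ugt-48* was at 0.28, −0.77, −0.33 and 0.45 from F0 to F3, *B0205.10* at −0.02, −0.24, −0.73 and 0.46 and *F18E3.13* at 0.34, 0.09, −0.58 and −0.92. *sdz-24* was at 0.59, 1.24, 0.17 and −0.10, *asp-13* at 0.31, −0.22, 0.36 and 0.67 and *msp-49* at 0.08, −0.34, −0.52 and 0.04. *col-41*, which overlaps *ucr-2.2* on the opposite strand and had 0 to 1.93 CPM in control libraries, was at 1.60, 1.02, −0.25 and 2.77. The mean of *ucr-2.2* was 63.45 CPM in exposed and 62.49 CPM in control libraries. Over 34 alternatives the test passed in 34 for *hpo-15*, *R10E8.1*, *ugt-48*, *F18E3.13*, *asp-13* and *sdz-24*. It passed in 33 for *lin-42* and *B0205.10* (not with the cuticle and the sperm score as a covariate, respectively), in 23 for *msp-49*, in 19 for *col-41* and in 14 for *fat-5*.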

How the results depend on the processing

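Of 86 gene results 16 lost their call in at least 1 alternative. The other 70 kept their side of the threshold in each alternative run, and all of these but the uncalled *cep-1* kept their direction. Its mean log2 fold change went to −0.051 with the sperm score as a covariate, −0.029 with the ribosomal RNA share and −0.022 without F2. As each of the 24 libraries was left out, calls in the mean ran from 1216 to 1892, rises from 827 to 1125, falls from 384 to 826, calls with 1 direction in all generations from 909 to 1229 and calls of a change between generations from 235 to 1993. The mean gave 2805 calls with limma-voom (1489 higher, 1316 lower), 948 with an additive model of generation and treatment (259 lower) and 325 falls without F1. Changes between generations numbered 4909 with limma-voom, 2245 with DESeq2, 372 with the cuticle score, 286 with the 24 libraries alone and 91 with the sperm score. Replicate numbers did not clearly pair the libraries: same-numbered deviations correlated between −0.10 and 0.33, and others between −0.43 and 0.26. The largest value, 0.33, belonged to replicate 2 of F3 on both sides, so these values cannot exclude a pairing. With the replicate block the mean gave 764 rises and 376 falls and 344 changes between generations were called. In the generation left out, rises kept their sign in 82.9% with no filter, 79.4% with the ribosomal RNA share and with DESeq2, 75.5% with the cuticle score and 73.5% with limma-voom. Falls did so in 73.2% with the sperm score, 59.3% with the ribosomal RNA share, 59.1% with the 24 libraries alone, 56.4% with no filter, 51.2% with a minimum of 1 CPM and 50.6% with DESeq2. With a covariate, its slope came from all libraries, the left-out generation among them. This check was not run with single libraries left out, the block or the additive model. The causes of these differences were not tested. Depth limits genes near 1 CPM, *egl-1* among them.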
